A study of Mus musculus with 16 samples.

Results

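The HoxD cluster is a run of 9 Hox genes on mouse chromosome 2, ordered Hoxd13, Hoxd12, Hoxd11, Hoxd10, Hoxd9, Hoxd8, Hoxd3, Hoxd4 and Hoxd1 along the + strand by their starts. The members were chosen by their names, as 9 of 22232 protein-coding genes of the GENCODE M1 annotation of mm9. The region examined ran from 2500 bp before the start of Hoxd13 to 2500 bp past the end of Hoxd1 (chr2:74503867-74605700, 101834 bp), and it held 407 of the 86279 peaks in 10 peak lists. Each gene was also described by the peaks within 2500 bp of its annotated start sites.

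The lists came from chromatin immunoprecipitation followed by sequencing (ChIP-seq) in a study that asked how the loss of PCGF5 affects Polycomb marks when mouse embryonic stem cells (ES) become neural precursor cells (NPC). Antibodies against H2AK119ub1 (monoubiquitinated histone H2A) and H3K27me3 (trimethylated histone H3) gave 8 of the lists, and a Flag antibody gave 2 lists for Flag-tagged PCGF5. The series had 16 libraries, of which the 6 input libraries were not analysed here.

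All groups shared the 46C line, an ES line in which the neural gene Sox1 carries a green fluorescent reporter. Wild type ES and PCGF5-depleted ES were grown on feeder fibroblasts with LIF and 2i inhibitors. Wild type NPC and PCGF5-depleted NPC were the differentiated cells of day 6, kept in suspension. The labels give the genotype of the depleted cells as shPCGF5, a short hairpin RNA against PCGF5. The study describes hairpin lines that were picked as single colonies after selection, and it also describes a nuclease knockout, so the exact origin of these libraries is uncertain. The Flag libraries are labelled as wild type and came from knock-in cells whose own Pcgf5 gene carries 3 × Flag. Each group had 1 library, so no value here has a replicate error and no difference between groups could be tested. The files gave no read totals, so the depth is unknown. Cell identity could be looked at only through peaks. The pluripotency genes Pou5f1 and Nanog had 0 peaks within 2500 bp of a start in all 10 lists. The neural genes Pax6 and Nes had H3K27me3 over 17888 bp and 1252 bp in wild type NPC, with 13796 bp and 2670 bp in the depleted NPC. In ES it covered 4350 bp and 0 bp in wild type cells and 5035 bp and 822 bp in depleted cells. This repressive mark was thus broader in NPC at both neural genes. Sox1 was not analysed, since the annotation has no protein-coding gene of that name. In a mixed population, fewer cells with a mark and less of the mark per cell cannot be told apart.

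Hox genes encode homeodomain transcription factors that give the body axis and the limbs their positional identity. Genes at the 3′ end of a cluster, such as Hoxd1, are used early and towards the head, and genes at the 5′ end, such as Hoxd13, are used late and towards the tail and the limb tips. Polycomb repressive complex 1 (PRC1) puts ubiquitin on histone H2A, Polycomb repressive complex 2 (PRC2) methylates lysine 27 of histone H3, and Hox clusters are classic targets of both. PCGF5 is a subunit of a noncanonical form of PRC1.

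The sequences shown first are the places with the highest fold enrichment in each of the NPC lists of the span, to show what lies under the highest peak of each list. Each is a single peak and does not stand for the others of its list. Each is 200 bases of mm9 around the summit of the peak, with CG dinucleotides, the building block of CpG islands, in capitals.
H2AK119ub1 summit in wild type NPC, chr2:74507297-74507496, + strand: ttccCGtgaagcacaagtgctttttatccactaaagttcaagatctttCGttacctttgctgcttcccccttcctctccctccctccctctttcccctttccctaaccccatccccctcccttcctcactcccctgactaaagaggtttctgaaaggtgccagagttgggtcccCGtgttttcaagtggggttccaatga
H2AK119ub1 summit in PCGF5-depleted NPC, chr2:74571219-74571418, + strand: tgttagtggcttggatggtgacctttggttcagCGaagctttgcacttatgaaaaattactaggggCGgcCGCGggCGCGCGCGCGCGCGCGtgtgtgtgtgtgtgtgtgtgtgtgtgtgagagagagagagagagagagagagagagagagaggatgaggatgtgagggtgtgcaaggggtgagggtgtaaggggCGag
H3K27me3 summit in wild type NPC, chr2:74543785-74543984, + strand: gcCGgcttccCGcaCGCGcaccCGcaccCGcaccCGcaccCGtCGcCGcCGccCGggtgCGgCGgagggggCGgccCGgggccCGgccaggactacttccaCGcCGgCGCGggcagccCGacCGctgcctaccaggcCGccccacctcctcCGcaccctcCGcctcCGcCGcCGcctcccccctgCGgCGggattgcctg
H3K27me3 summit in PCGF5-depleted NPC, chr2:74549400-74549599, + strand: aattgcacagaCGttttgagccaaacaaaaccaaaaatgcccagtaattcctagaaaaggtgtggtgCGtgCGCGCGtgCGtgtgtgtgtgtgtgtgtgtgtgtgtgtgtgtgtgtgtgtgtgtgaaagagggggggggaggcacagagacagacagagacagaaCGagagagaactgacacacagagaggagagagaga
The H2AK119ub1 summit of wild type NPC lay in an intron of Hoxd13 and held 3 CG. That of PCGF5-depleted NPC lay in an intron of Hoxd3 and held 13. The H3K27me3 summit of wild type NPC lay in a coding exon of Hoxd8 and held 31 CG, a number reached by 2.65% of the 22227 promoter windows of 200 bp taken just upstream of protein-coding genes. The H3K27me3 summit of PCGF5-depleted NPC lay outside protein-coding genes, just upstream of Hoxd3 and within the non-coding gene 1700109F18Rik, and held 7 CG, which is also the median of those promoter windows. Both windows of PCGF5-depleted NPC held a TG repeat (TGTGTGTGTG), and the wild type windows did not. On either strand, 1.71% of the promoter windows held it. Neither of these summit windows is a promoter window, and the share for introns and intergenic sequence was not counted. In the H2AK119ub1 window of PCGF5-depleted NPC, part of the 13 CG formed an unbroken run next to the repeat. Whether the repeats affect these peaks was not tested. All 4 windows were covered over 200 of 200 bp by the H2AK119ub1 and H3K27me3 peaks of wild type NPC, and by the H3K27me3 peaks of PCGF5-depleted NPC. The H2AK119ub1 list of PCGF5-depleted NPC covered 142, 196, 200 and 0 bp of them in the order shown. In the H2AK119ub1 list of wild type ES, 0 bp of each of the 4 windows were covered.

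Another set shows how unlike the start regions of the members are. These are the 200 bases upstream of the first annotated start of the protein-coding transcripts of Hoxd11, Hoxd4 and Hoxd1, again with CG in capitals.
Hoxd11 upstream, chr2:74519856-74520055, + strand: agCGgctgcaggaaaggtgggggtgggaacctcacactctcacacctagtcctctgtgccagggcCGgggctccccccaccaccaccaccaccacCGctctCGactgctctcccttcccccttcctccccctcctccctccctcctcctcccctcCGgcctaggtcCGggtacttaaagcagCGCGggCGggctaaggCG
Hoxd4 upstream, chr2:74559835-74560034, + strand: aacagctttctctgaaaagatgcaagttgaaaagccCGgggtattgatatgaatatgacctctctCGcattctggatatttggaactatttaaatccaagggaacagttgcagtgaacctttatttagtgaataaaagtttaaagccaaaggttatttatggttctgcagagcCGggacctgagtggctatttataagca
Hoxd1 upstream, chr2:74600837-74601036, + strand: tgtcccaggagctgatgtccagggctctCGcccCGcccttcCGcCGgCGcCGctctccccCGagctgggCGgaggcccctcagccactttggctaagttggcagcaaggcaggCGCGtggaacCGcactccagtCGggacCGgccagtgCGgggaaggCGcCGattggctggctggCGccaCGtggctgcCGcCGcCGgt
The Hoxd11 window held 10 CG, the Hoxd4 window 3 and the Hoxd1 window 21, and 43.2%, 72.2% and 13.0% of promoter windows held at least as many. The Hoxd11 window was touched by 7 of the 8 histone lists and lay entirely in H2AK119ub1 and H3K27me3 peaks of wild type NPC. The Hoxd4 window was covered by 0 bp of peaks in every list. It lies at the first of 2 annotated starts of Hoxd4. The other start lay inside an H3K27me3 peak in PCGF5-depleted ES and in wild type NPC. The Hoxd1 window was covered only by H3K27me3, over 86 bp in wild type ES, 146 bp in PCGF5-depleted ES and 200 bp in wild type NPC, against 118 bp in PCGF5-depleted NPC.

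H2AK119ub1 peaks spread over much of the cluster in wild type NPC and covered little of it in PCGF5-depleted NPC. Wild type ES had 36 peaks over 11617 bp of the span, PCGF5-depleted ES 47 peaks over 21354 bp, wild type NPC 76 peaks over 54490 bp and PCGF5-depleted NPC 46 peaks over 12847 bp. These lengths were 11.4%, 21.0%, 53.5% and 12.6% of the span. Wild type NPC therefore stood apart from the 3 other lists, and PCGF5-depleted NPC had about the coverage of wild type ES.

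H3K27me3 peaks spread over the cluster in NPC of both genotypes. Wild type ES had 45 peaks over 13086 bp, PCGF5-depleted ES 44 over 16014 bp, wild type NPC 45 over 72300 bp and PCGF5-depleted NPC 68 over 64992 bp. These lengths were 12.9%, 15.7%, 71.0% and 63.8% of the span. Both NPC lists were high and both ES lists low.

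**Figure D1:**
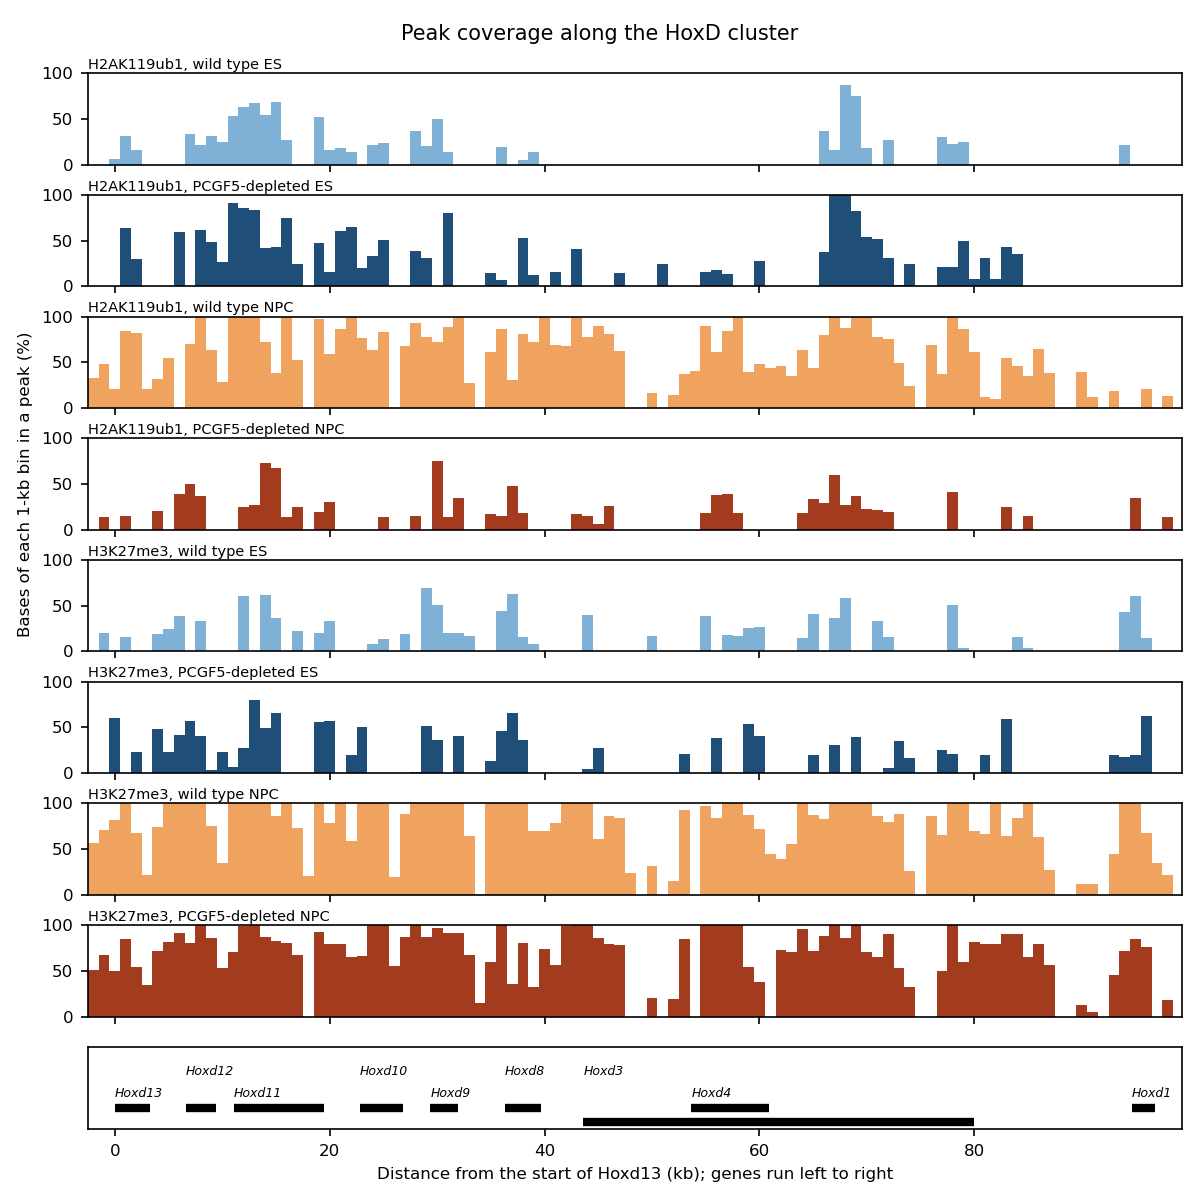
Percentage of each 1000-bp bin of the HoxD span that lay in a peak (vertical axes, 0 to 100%), against the distance from the start of Hoxd13 in kb, for the 8 histone lists (1 library each), with the 9 genes drawn at the bottom. H2AK119ub1 filled most of the span in wild type NPC and only scattered bins in PCGF5-depleted NPC, while H3K27me3 filled it in both NPC lists.

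Peaks in the span were widest in wild type NPC for both marks. The median H2AK119ub1 peak of the span was 240.5 bp in wild type ES, 325 bp in PCGF5-depleted ES and 402 bp in wild type NPC, against 211.5 bp in PCGF5-depleted NPC, beside list medians of 217, 222, 265 and 216 bp. The widest peak reached 1225, 2596, 4007 and 905 bp in the same order. The mean fold enrichment over background, column 7 of the lists, was 4.98, 4.59, 5.02 and 5.29, so the list with the shortest peaks had the highest mean. The whole lists had means of 4.72, 4.15, 4.59 and 5.11, so this was not confined to the cluster. For H3K27me3 the median width was 224 bp in wild type ES, 328.5 bp in PCGF5-depleted ES and 975 bp in wild type NPC, against 612 bp in PCGF5-depleted NPC. Its mean fold was 4.46, 5.05, 6.17 and 5.08. Among the NPC lists of this mark, the wild type list had the wider and the higher peaks in the span. Over the whole lists the order was the same, with median widths of 453 bp in wild type and 360 bp in PCGF5-depleted NPC. The mean folds of these whole lists were 5.06 and 4.27.

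**Figure D2:**
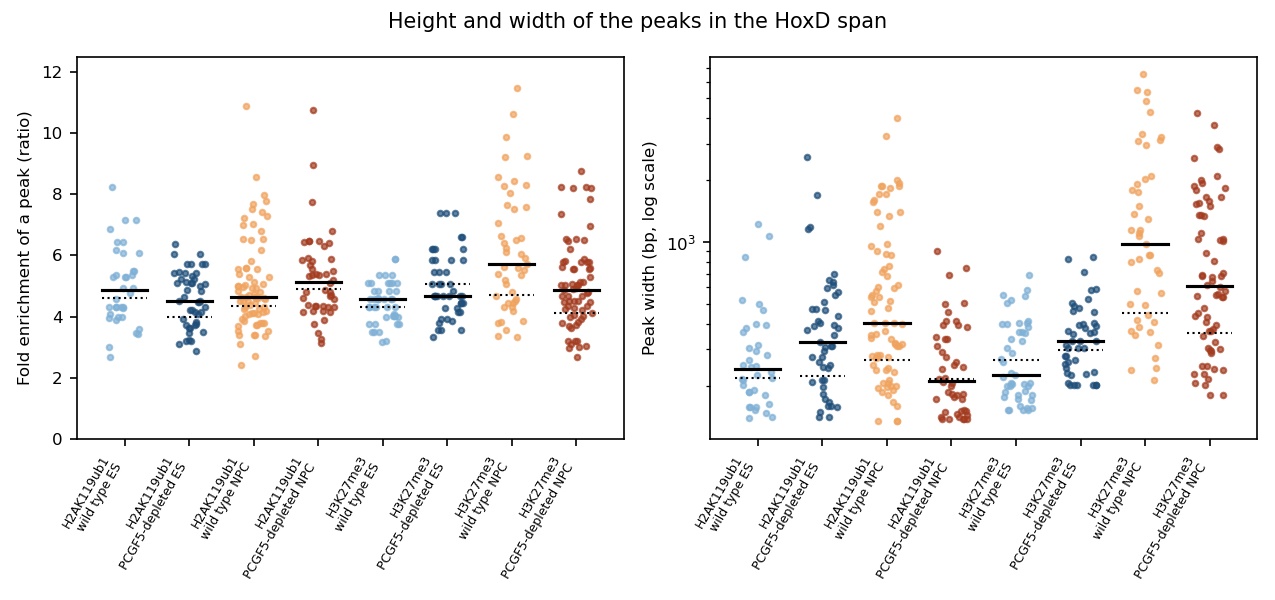
Fold enrichment (left, ratio over background) and width (right, bp on a log scale) of every peak in the HoxD span, for the 8 histone lists. Points are peaks, solid lines the median in the span and dotted lines the median of the whole list. The widths of the peaks in NPC reached 4007 bp for H2AK119ub1 and 6520 bp for H3K27me3 in wild type cells, and the fold enrichments of the genotypes overlapped throughout.

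Peaks that lay within 1000 bp of each other were also joined into blocks. H2AK119ub1 then formed 15 blocks in wild type ES, 22 in PCGF5-depleted ES and 16 in wild type NPC, against 22 in PCGF5-depleted NPC, of which the longest had 5729, 9580, 19801 and 5656 bp. H3K27me3 formed 25, 22, 9 and 10 blocks, with the longest at 2817, 4629, 29377 and 28849 bp. In NPC the H3K27me3 of both genotypes thus lay in a few long blocks, whereas the H2AK119ub1 of PCGF5-depleted NPC did not.

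The posterior genes at the 5′ end, Hoxd13 to Hoxd9, pattern the limbs, the genitalia and the hind part of the trunk. Hoxd13 (chr2:74506367-74509656), which shapes the digits, had H2AK119ub1 over 542 bp of its 5001-bp window in wild type ES, 931 bp in PCGF5-depleted ES and 2697 bp in wild type NPC, against 289 bp in PCGF5-depleted NPC. The highest peak of the wild type NPC list in the span lay here (chr2:74507237-74508424, 1188 bp, overlapping a coding exon) with a fold of 10.9, while the highest at this gene in PCGF5-depleted NPC had a fold of 4.57. H3K27me3 at Hoxd13 covered 354, 831, 3771 and 3065 bp in the same order of lists. Both marks were therefore broadest in wild type NPC, and only H2AK119ub1 was narrower in PCGF5-depleted NPC than in ES.

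Hoxd12 (chr2:74512986-74515763), its neighbour, also acts in the digits. Its H2AK119ub1 covered 808 bp in wild type ES, 1573 bp in PCGF5-depleted ES and 2751 bp in wild type NPC, against 1283 bp in PCGF5-depleted NPC. H3K27me3 covered 983, 1929, 5001 and 4420 bp. In wild type NPC that mark was 1 peak across the whole window with a fold of 4.33, and in PCGF5-depleted NPC it was 5 peaks with a highest fold of 8.25. The broader coverage in wild type NPC thus did not go with a higher fold at this gene.

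Hoxd11 (chr2:74517449-74525798), which acts with its HoxA paralog in the forearm and the kidney, was the member with the most H2AK119ub1 in ES for its window of 5434 bp. The mark covered 2911 bp in wild type ES, 3514 bp in PCGF5-depleted ES and 4538 bp in wild type NPC, against 2172 bp in PCGF5-depleted NPC, with highest folds of 8.24, 5.09, 7.99 and 8.98. Hoxd11 was the only member with a start site inside a peak in all 8 histone lists. Its H3K27me3 covered 1594, 2279, 5297 and 4627 bp. The widest H2AK119ub1 peak of the span in both NPC lists overlapped a coding exon of Hoxd11, at chr2:74516579-74520585 (4007 bp) in wild type NPC and at chr2:74520399-74521303 (905 bp) in PCGF5-depleted NPC.

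Hoxd10 (chr2:74529147-74533163), known from lumbar motor neurons, showed the steepest contrast between the NPC lists. H2AK119ub1 covered 769 bp in wild type ES, 2437 bp in PCGF5-depleted ES and 4042 bp in wild type NPC, against 138 bp in PCGF5-depleted NPC, where 1 peak had a fold of 4.68, beside 3 peaks with a highest fold of 8.57 in wild type NPC. H3K27me3 covered 220, 707, 4569 and 4045 bp. In PCGF5-depleted NPC this window was thus mostly covered by H3K27me3 and had almost no H2AK119ub1.

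Hoxd9 (chr2:74535737-74538265), which acts in the trunk and limbs with its paralogs, had H2AK119ub1 over 1206, 1499, 4247 and 1173 bp and H3K27me3 over 1582, 972, 5001 and 4754 bp in wild type ES, PCGF5-depleted ES, wild type NPC and PCGF5-depleted NPC. The widest H3K27me3 peak of wild type NPC (chr2:74532985-74539504, 6520 bp, fold 8.04) overlapped coding exons of Hoxd9 and of Gm14396, a protein-coding gene model between Hoxd10 and Hoxd9. Hoxd9 and Hoxd12 were the members whose whole windows lay in H3K27me3 in wild type NPC.

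Hoxd8 (chr2:74542672-74545990) is the only central member of the cluster. H2AK119ub1 covered 376 bp of its 5538-bp window in wild type ES, 868 bp in PCGF5-depleted ES and 3164 bp in wild type NPC, against 984 bp in PCGF5-depleted NPC. H3K27me3 covered 1318, 1613, 4544 and 3140 bp. The highest H3K27me3 peak of the wild type NPC list in the span lay here (chr2:74540860-74545125, 4266 bp, overlapping a coding exon of Hoxd8) with a fold of 11.5, against a highest fold of 4.91 at Hoxd8 in PCGF5-depleted NPC.

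The anterior members Hoxd4, Hoxd3 and Hoxd1 are known from the hindbrain, the neck vertebrae and sensory neurons. Hoxd4 (chr2:74560035-74567217) was the only member with 0 H2AK119ub1 peaks in wild type ES. This mark covered 725 bp of its 10002-bp window in PCGF5-depleted ES and 5328 bp in wild type NPC, against 1048 bp in PCGF5-depleted NPC. H3K27me3 at Hoxd4 covered 1262, 1442, 6647 and 5851 bp over the 4 lists. The windows of Hoxd4 and Hoxd3 share 4906 bp, so their values are not separate measurements.

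Hoxd3 (chr2:74549986-74586331), with 6 start sites and a window of 26709 bp, held the most base pairs of both marks. Its H2AK119ub1 covered 3373 bp in wild type ES, 6964 bp in PCGF5-depleted ES and 19339 bp in wild type NPC, against 4708 bp in PCGF5-depleted NPC. The number of start sites of Hoxd3 inside an H2AK119ub1 peak was 2, 3, 4 and 0 in the same order, although the highest H2AK119ub1 peak of PCGF5-depleted NPC in the span lay in an intron of this gene (chr2:74571223-74571558, 336 bp, fold 10.8). H3K27me3 covered 3811, 3578, 22947 and 19936 bp, and all 6 start sites were inside an H3K27me3 peak in both NPC lists.

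Hoxd1 (chr2:74601037-74603200), at the 3′ end and known from pain-sensing neurons, was the exception for H2AK119ub1. It had 215 bp in wild type ES, 0 bp in PCGF5-depleted ES and 397 bp in wild type NPC, against 346 bp in PCGF5-depleted NPC, at most 2 peaks in any list and a highest fold of 4.61. Its H3K27me3, at 1185, 1197, 3258 and 2779 bp, behaved as at the other members. Hoxd1 thus had the broad H3K27me3 of the cluster in NPC with little H2AK119ub1.

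**Figure D3:**
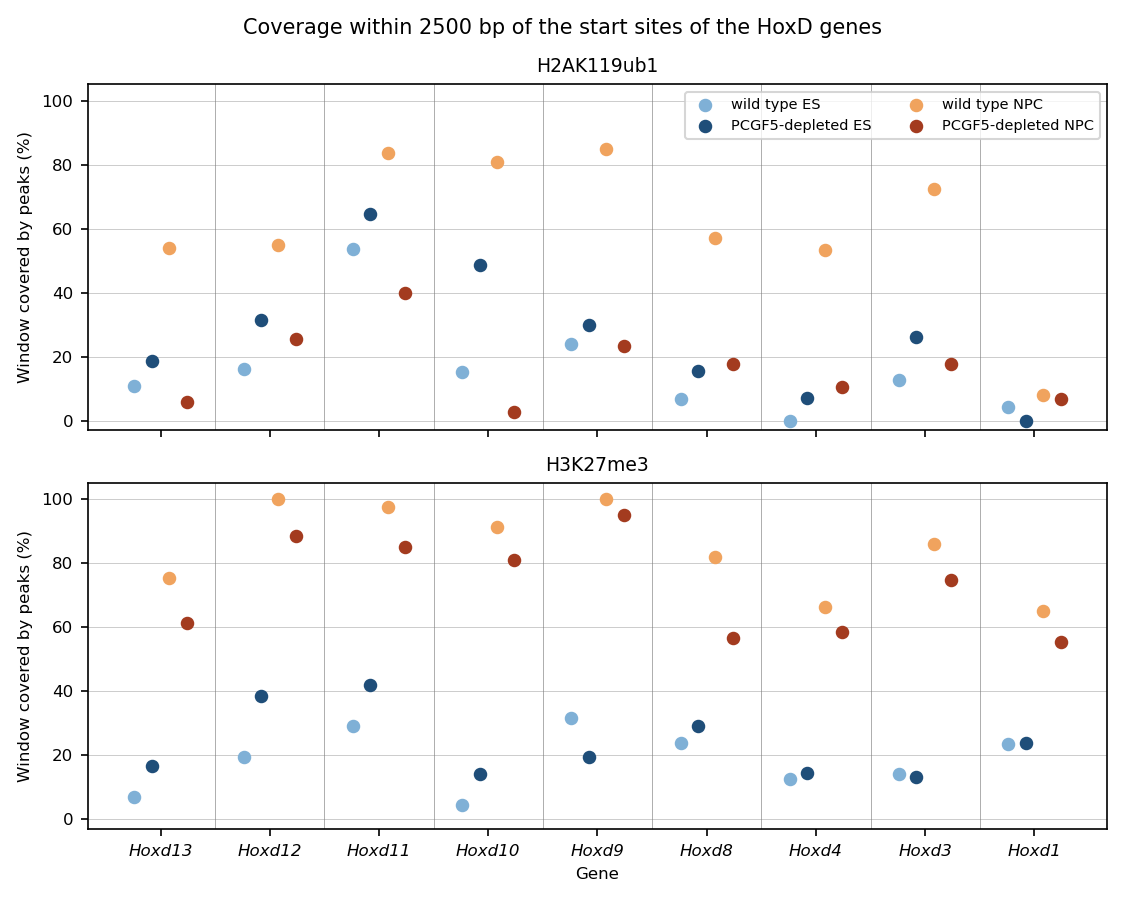
Percentage of the windows within 2500 bp of the start sites of each HoxD gene that lay in a peak (vertical axis), for H2AK119ub1 (top) and H3K27me3 (bottom), with 1 point per list (1 library each). Wild type NPC was the highest point at every gene for both marks, and PCGF5-depleted NPC lay well below it for H2AK119ub1 at every gene but Hoxd1.

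Non-coding genes lie between the members. The start of Mir10b (chr2:74564127-74564194), a microRNA gene within the Hoxd4 gene model, lay in an H2AK119ub1 peak of 1600 bp in wild type NPC, as well as in H3K27me3 peaks of both NPC lists, with widths of 2971 bp for wild type and 4231 bp for PCGF5-depleted cells. It lay in no ES peak of either mark and in no H2AK119ub1 peak of PCGF5-depleted NPC. The starts of Gm14424, Gm14426 and 6720416L17Rik, between Hoxd3 and Hoxd1, were in H3K27me3 peaks in both NPC lists and in no H2AK119ub1 peak. The start of Gm20440 lay in a peak of 1 list, a 329-bp H3K27me3 peak of PCGF5-depleted ES. Overlapping transcripts cannot be told apart in these peaks.

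Coverage in NPC was lower in the 3′ part of the cluster. In wild type NPC, H2AK119ub1 covered 64.2% of the stretch from Hoxd13 to Hoxd9, 65.4% of that from Hoxd9 to Hoxd3, which holds Hoxd8, 56.7% of Hoxd3 with Hoxd4, 25.7% between Hoxd3 and Hoxd1 and 7.31% from Hoxd1 to the end of the span. PCGF5-depleted NPC had 17.1%, 11.6%, 13.0%, 2.72% and 10.4% of the same stretches. The lower coverage in PCGF5-depleted NPC held for the first 4 stretches and not for Hoxd1. H3K27me3 covered 82.8%, 81.4%, 69.0%, 48.6% and 44.4% in wild type NPC and 76.5%, 66.8%, 59.9%, 50.2% and 36.5% in PCGF5-depleted NPC. In wild type ES, H2AK119ub1 was concentrated at the 5′ end, with 22.2% from Hoxd13 to Hoxd9, 3.21% from Hoxd9 to Hoxd3, 9.28% at Hoxd3, 1.46% between Hoxd3 and Hoxd1 and 0 bp from Hoxd1 on. H3K27me3 in wild type ES was not concentrated there, with 16.4%, 14.4%, 12.0%, 4.67% and 15.1%.

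The marks went on past the 5′ end of the span and were almost gone past its 3′ end. Evx2, the homeobox gene next to Hoxd13, had H2AK119ub1 over 1547 bp near its starts in wild type ES, 1548 bp in PCGF5-depleted ES and 4159 bp in wild type NPC, against 1276 bp in PCGF5-depleted NPC, and H3K27me3 over 1020, 797, 4458 and 3979 bp. Mtx2, which encodes a mitochondrial import protein on the other side, had 0 peaks within 2500 bp of its start in all 10 lists. Between the span and Mtx2 lay 1 peak, of 215 bp and fold 4.81, in the H2AK119ub1 list of wild type NPC.

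The comparison of genotypes in NPC asks how the marks of the cluster differ in PCGF5-depleted cells after neural differentiation. H2AK119ub1 in the span went from 54490 bp in 76 peaks in wild type NPC to 12847 bp in 46 peaks in PCGF5-depleted NPC, a log2 ratio of -2.08 at mean folds of 5.02 and 5.29. The log2 ratio of the 2 whole lists was -1.05. A gene was called lower or higher when its covered base pairs in one list were at most 50% of those in the other. By this rule 8 of the 9 members were lower, 0 were higher and Hoxd1 was neither, beside 51.8% lower and 28.8% higher of the 1484 genes with a peak in either list. The median log2 ratio was -1.86 over the 9 members and -0.61 over the 574 genes with a peak in both lists. With the 3845 top-scoring peaks of each list, the span still held 50392 bp in wild type NPC, against 12847 bp in PCGF5-depleted NPC. With windows of 1000 bp, 5 members were lower and 1 was higher, and with the higher-scoring 50% of each list the log2 ratio of the span was -3.17.

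H3K27me3 differed little between the genotypes in NPC. It covered 72300 bp in 45 peaks in wild type NPC and 64992 bp in 68 peaks in PCGF5-depleted NPC, a log2 ratio of -0.15 at mean folds of 6.17 and 5.08, beside -0.24 for the whole lists. All 9 members had fewer covered base pairs in PCGF5-depleted NPC, but 0 were called lower and 0 higher, beside 33.4% lower and 22.9% higher of 4302 genes. The median member differed by -0.20 on the log2 scale and the median of 2695 genes by -0.34. PCGF5-depleted NPC thus had more and shorter H3K27me3 peaks over nearly the same length of the span. Its whole list also had more peaks, 14759 against 11371 in wild type NPC.

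The base pairs themselves showed the same split. In the span, 44163 bp lay in H2AK119ub1 peaks of wild type NPC and in none of PCGF5-depleted NPC. Of these, 91.4% lay in H3K27me3 peaks of wild type NPC and 81.7% still lay in H3K27me3 peaks of PCGF5-depleted NPC, beside 82.9% and 63.2% of such base pairs over the whole lists. The H3K27me3 peaks covered 71.0% and 63.8% of the span itself. Of the H2AK119ub1 base pairs of PCGF5-depleted NPC in the span, 80.4% were also in the wild type list, and these were 19.0% of the wild type base pairs. Over the whole lists the shares were 38.4% and 18.5%. In the cluster, most H2AK119ub1 base pairs of PCGF5-depleted NPC thus also lay in wild type peaks, which by themselves covered 53.5% of the span.

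In ES the genotypes differed the other way. H2AK119ub1 went from 11617 bp in 36 peaks in wild type ES to 21354 bp in 47 peaks in PCGF5-depleted ES, a log2 ratio of 0.88 at mean folds of 4.98 and 4.59, while the whole lists differed by -0.25. Of the members, Hoxd10, Hoxd8, Hoxd4 and Hoxd3 were called higher, Hoxd1 lower and 4 neither, beside 33.6% higher and 43.2% lower of 2115 genes. More base pairs, by any amount, were covered at 8 of the 9 members. With windows of 1000 bp, 2 members were higher and 2 lower. The median log2 ratio was 0.96 over the 7 members with peaks in both lists and -0.14 over 747 genes. Of the 14062 bp found only in PCGF5-depleted ES, 86.3% were also in H2AK119ub1 peaks of wild type NPC, against 20.7% over the whole lists and 53.5% of the span covered. H3K27me3 in the span differed by 0.29 on the log2 scale, from 13086 to 16014 bp at mean folds of 4.46 and 5.05, with -0.17 for the whole lists. Here Hoxd13 and Hoxd10 were called higher, 0 members lower and 7 neither, beside 27.7% higher and 34.5% lower of 3773 genes. The direction of this small H3K27me3 difference changed when only the higher-scoring 50% of each list was used, to a log2 ratio of -0.14.

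The comparison of stages asks how the marks of the cluster differ after differentiation. In wild type cells, H2AK119ub1 in the span went from 11617 bp to 54490 bp, a log2 ratio of 2.23, at mean folds of 4.98 and 5.02, while the whole lists differed by -0.09. Higher coverage was called at 7 of the 9 members, lower at 0 and neither at Hoxd11 and Hoxd1, beside 35.4% higher and 50.9% lower of 2073 genes. The HoxD cluster held 0.467% of all H2AK119ub1 base pairs in wild type ES and 2.34% in wild type NPC. In PCGF5-depleted cells, the same comparison went from 21354 bp to 12847 bp, a log2 ratio of -0.73 at mean folds of 4.59 and 5.29, with -0.90 for the whole lists. Hoxd13 and Hoxd10 were called lower, Hoxd1 higher and 6 neither, beside 54.5% lower and 26.5% higher of 1729 genes. With the higher-scoring 50% of each list, 6 members were lower, 0 were higher and the log2 ratio was -1.82.

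H3K27me3 was broader in NPC than in ES in both genotypes. In wild type cells it went from 13086 bp to 72300 bp, a log2 ratio of 2.47 at mean folds of 4.46 and 6.17, with 1.16 for the whole lists. All 9 members were called higher, beside 60.2% higher and 21.1% lower of 4367 genes. In PCGF5-depleted cells it went from 16014 bp to 64992 bp, a log2 ratio of 2.02 at mean folds of 5.05 and 5.08, with 1.09 for the whole lists. Here 8 members were called higher and Hoxd8 neither, beside 57.2% higher and 19.5% lower of 4148 genes. With windows of 1000 bp or with joined peaks, 5 members were higher. With the higher-scoring 50% of each list, the log2 ratios were 3.20 in wild type and 3.02 in PCGF5-depleted cells. The median log2 ratio of the members was 2.35 in wild type and 1.88 in PCGF5-depleted cells, beside 1.24 and 1.02 over all genes with a peak in both lists.

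Most base pairs with H3K27me3 in ES also had it in NPC. Of its base pairs in the span in wild type ES, 99.9% were also covered in wild type NPC, where peaks took 71.0% of the span, beside 50.1% over the whole lists. In PCGF5-depleted cells the share was 84.2%, where peaks took 63.8% of the span, beside 46.8%. For H2AK119ub1, 88.3% of the wild type ES base pairs in the span were covered in wild type NPC, where peaks took 53.5% of the span, beside 17.8% over the whole lists. In PCGF5-depleted cells this was 22.1%, where peaks took 12.6% of the span, beside 18.0%.

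Nearly every member carried both marks. H2AK119ub1 peaks were found at 8, 8, 9 and 9 members in wild type ES, PCGF5-depleted ES, wild type NPC and PCGF5-depleted NPC, beside 6.82%, 6.05%, 5.04% and 4.22% of all genes. H3K27me3 peaks were found at all 9 members in each of the 4 lists, beside 13.5%, 13%, 15.9% and 15.6% of all genes. A gene with no peak is only one where the caller listed none.

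Most H2AK119ub1 base pairs of NPC, and a minority of those of ES, lay in H3K27me3 peaks. In wild type ES, 28.8% of the H2AK119ub1 base pairs in the span lay in H3K27me3 peaks, and 25.5% of the H3K27me3 base pairs lay in H2AK119ub1 peaks. In wild type NPC these shares were 92.8% and 70.0%. PCGF5-depleted ES had 22.2% and 29.7%, and PCGF5-depleted NPC 96.0% and 19.0%. The last share is limited by the lengths, since H2AK119ub1 of PCGF5-depleted NPC covered 12847 bp of the span and H3K27me3 64992 bp. Counted as peaks with any overlap, 47.2% of the H2AK119ub1 peaks of wild type ES and 46.8% of those of PCGF5-depleted ES met H3K27me3. The H3K27me3 peaks took 12.9% of the span in wild type ES and 71.0% in wild type NPC. Over the whole lists, the share of H2AK119ub1 base pairs in H3K27me3 was 40.1% in wild type ES, 27.5% in PCGF5-depleted ES and 85.4% in wild type NPC, against 78.3% in PCGF5-depleted NPC. The whole-list share of H3K27me3 base pairs in H2AK119ub1 was 23.2%, 15.0%, 20.6% and 10.8% in the same order. Of the 102 bins of the span, 11 had a peak in all 8 histone lists, 43 in all 4 NPC lists, 12 in all 4 ES lists and 5 in none.

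Base composition differed between the covered and uncovered parts of the span. H2AK119ub1 peaks held 4.42 CG per 100 bp in wild type ES against 2.57 in the rest of the span, 2.83 against 2.77 in PCGF5-depleted ES, 2.99 against 2.55 in wild type NPC and 6.04 against 2.32 in PCGF5-depleted NPC. The H2AK119ub1 of PCGF5-depleted NPC was the most CG-rich of the 4. The whole lists had 3.07, 2.48, 2.71 and 4.99 CG per 100 bp in the same order, so the shift was not confined to the cluster. H3K27me3 peaks of the span held 6.50, 4.80, 3.48 and 3.27 CG per 100 bp against 2.24, 2.41, 1.09 and 1.93 in the rest. In both genotypes the broad NPC peaks were less CG-rich than the ES peaks. The whole H3K27me3 lists had 5.16, 4.32, 4.15 and 3.69 CG per 100 bp, so this shift was not confined to the cluster either.

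Flag-PCGF5 had 0 peaks in the span in both stages, and so at 0 of the 9 members, beside 14.1% of all genes in NPC and 0.819% in ES. The nearest peak in NPC lay 10142 bp before the span, in a coding exon of Evx2 (chr2:74493347-74493724, 378 bp, fold 2.38), and the nearest in ES lay 3652750 bp away. The NPC list had 930 peaks on chromosome 2 and the ES list 58. Whether the H2AK119ub1 difference in the cluster goes with PCGF5 at the cluster was not tested, since the lists show only peaks past the threshold of the caller.

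The other Hox clusters were described in the same way, with no test of the difference between clusters. The H2AK119ub1 ratio between the genotypes had the same sign in all 4 clusters at each stage, while the H3K27me3 ratio in ES did not. H2AK119ub1 covered 53.5% of HoxD in wild type NPC, beside 69.2% of HoxA, 47.5% of HoxB and 70.6% of HoxC. These spans had 101834, 110509, 178941 and 120741 bp, so the lower percentage of HoxB belongs to a longer span. PCGF5-depleted NPC against wild type NPC gave log2 ratios of -2.08 for HoxD, -2.07 for HoxA, -2.43 for HoxB and -2.91 for HoxC, with mean folds from 5.02 to 5.65 for wild type and from 5.28 to 5.30 for PCGF5-depleted cells. The covered lengths went from 76451 to 18157 bp in HoxA, from 84938 to 15751 bp in HoxB and from 85290 to 11385 bp in HoxC. The ratio of HoxD was thus about that of HoxA and nearer to 0 than those of HoxB and HoxC. In ES the same ratio was 0.88 for HoxD, 0.28 for HoxA, 1.02 for HoxB and 1.62 for HoxC, at 19525 and 23686 bp in HoxA, 15532 and 31405 bp in HoxB and 5654 and 17365 bp in HoxC. Mean folds were 4.73 to 5.14 in wild type ES and 4.22 to 4.59 in PCGF5-depleted ES. The H3K27me3 ratio in ES was 0.29 for HoxD, -0.20 for HoxA, -0.18 for HoxB and 1.22 for HoxC, at 14404 and 12523 bp in HoxA, 16959 and 14949 bp in HoxB and 4188 and 9781 bp in HoxC. Mean folds were 4.32 to 4.55 in wild type ES and 5.05 to 5.20 in PCGF5-depleted ES. By covered length HoxD and HoxC thus had more H3K27me3 in PCGF5-depleted ES, and HoxA and HoxB had less, beside -0.17 for the whole lists. The HoxD ratio became -0.14 with the higher-scoring 50% of each list, so its sign depended on the setting. Flag-PCGF5 peaks of NPC were found at 3 HoxB genes (Hoxb2, Hoxb3 and Hoxb5) and at Hoxc11, and at 0 HoxA genes as at 0 HoxD genes.

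**Figure D4:**
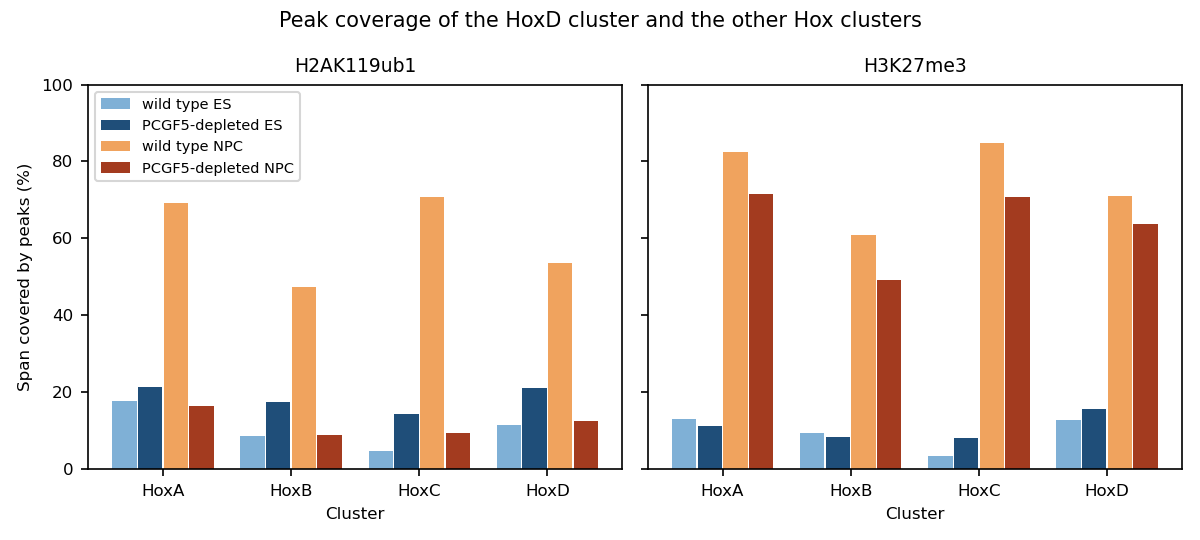
Percentage of the span of each Hox cluster (genes with 2500 bp on either side) that lay in a peak, for H2AK119ub1 (left) and H3K27me3 (right), with 1 bar per list (1 library each, so no error bars). The spans differ in length, from 101834 bp for HoxD to 178941 bp for HoxB. In all 4 clusters the H2AK119ub1 bar of wild type NPC was the tallest and that of PCGF5-depleted NPC was near the ES bars, and both H3K27me3 bars of NPC were tall.

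Histone peaks were found at fewer of the genes for Hox cofactors than of the HoxD members. Of 9 genes for Hox cofactors of the Pbx, Meis and Pknox families, 2 had H2AK119ub1 in wild type ES and 3 in PCGF5-depleted ES. In NPC, 0 had it in wild type cells and 2 in PCGF5-depleted cells. The shares of all genes were 6.82%, 6.05%, 5.04% and 4.22%. For H3K27me3 the counts were 2, 2, 1 and 4 in the same order, beside 13.5%, 13%, 15.9% and 15.6% of all genes. Meis1 had H3K27me3 over 310 bp in wild type NPC, against 4002 bp in PCGF5-depleted NPC, and Meis2 over 0 and 2322 bp. Meis3 had 0 and 180 bp and Pknox2 0 and 1334 bp. These 4 were all the cofactor genes with an H3K27me3 peak in either NPC list, and Meis3 had only 1 such peak. All 4 had more covered base pairs in PCGF5-depleted NPC. Of the 4302 genes with a peak in either list, 22.9% were called higher and 33.4% lower. The HoxD members all had fewer covered base pairs there, but 0 of them were called lower. Pbx3 had 1 peak in all lists, of H2AK119ub1 over 164 bp in PCGF5-depleted ES. Flag-PCGF5 had peaks in NPC at 4 of the 9 cofactor genes, Pbx2, Meis1, Meis2 and Meis3, beside 14.1% of all genes. Of the 3 Cdx genes, which encode activators of Hox genes, Cdx2 had H3K27me3 over 1099, 1677, 4509 and 4220 bp and H2AK119ub1 over 1059, 1723, 3398 and 2336 bp in the order of lists used above. For Cdx2 the coverage was broadest in wild type NPC. Cdx1 had H3K27me3 over 0, 0, 2354 and 2387 bp and H2AK119ub1 over 401, 0, 417 and 638 bp, and was thus not broadest there. Cdx4 had H3K27me3 over 777 bp in wild type NPC, against 513 bp in PCGF5-depleted NPC, and no other histone peak. Flag-PCGF5 had a peak at Cdx1 in NPC.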

How the data were processed

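Peak lists of 10 ChIP-seq libraries were analysed, 1 per group, with groups taken from the labels. The study used nuclease-digested, lightly fixed nucleosomes for both histone marks, and crosslinked, sonicated chromatin for Flag. The authors trimmed reads, aligned them to mm9 with Bowtie2, removed duplicates and ran MACS2 2.1.0 on every library by itself, so lists differ in length with depth and background as well as with the mark. The Drosophila spike-in does not enter the lists, and read totals were not given. The columns deposited by the authors give each peak a score, its fold over background (a ratio, column 7), and its p-value and q-value on a −log10 scale.

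From these, the number of peaks, the base pairs covered and the fold were computed for the span and for each gene, with windows of 2500 bp, a minimum overlap of 1 bp and GENCODE M1 start sites of protein-coding transcripts (Python 3.11.15). Peaks were ranked by p-value, then by q-value and then by fold, and top-scoring and higher-scoring refer to this rank. The q-value also served as a filter. Coverage counts each base once. A gene was called at 50% or less of the covered base pairs of the other list, with 0 included. With 1 library per group there was no test. The code was tested on simulated data, and 100 values were checked against bedtools 2.31.1, of which 0 differed. Sequences were read from NCBIM37, which is the mm9 assembly, and 0 peaks ran past a chromosome end in it. The members and gene lists were chosen with earlier results of these data known. The rule for names took all members, the protein-coding gene on each side, non-coding genes with a start in a peak, cofactor and Cdx genes with a peak, and the widest and highest peaks of the span. Alternatives were the higher-scoring 50% of peaks, a q-value of at most 0.05, equal numbers of top-scoring peaks, peaks joined within 1000 bp, a window of 1000 bp, no flank, and the share of peaks in place of base pairs.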

Additional observations from a re-analysis of the deposited data

Results flagged for a closer look

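Several measures of the cluster moved in opposite directions in the groups compared. With 1 library per group these differences were not tested. In H2AK119ub1, PCGF5-depleted minus wild type was 9737 bp in ES and -41643 bp in NPC over the span, so the change in NPC minus that in ES was -51380 bp. The genotype difference in peak number was 11 in ES and -30 in NPC, which puts NPC at -41 relative to ES. Read by stage, NPC minus ES was 42873 bp and 40 peaks in wild type cells and -8507 bp and -1 peak in PCGF5-depleted cells, which gives the same differences. At single genes the difference was -2797 bp at Hoxd13, -2233 bp at Hoxd12, -2969 bp at Hoxd11, -5572 bp at Hoxd10, -3367 bp at Hoxd9 and -18222 bp at Hoxd3, where the directions were opposite both by genotype and by stage. At Hoxd8 it was -2672 bp and at Hoxd4 -5005 bp, opposite by genotype only. Hoxd1 was not among them.

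In H3K27me3, PCGF5-depleted minus wild type was 2928 bp in ES and -7308 bp in NPC over the span, a difference of -10236 bp. The number of peaks went the other way, by -1 in ES and 23 in NPC, a difference of 24. The difference was -1183 bp at Hoxd13, -1527 bp at Hoxd12, -1355 bp at Hoxd11, -1011 bp at Hoxd10, -1699 bp at Hoxd8, -976 bp at Hoxd4 and -491 bp at Hoxd1. In ES, PCGF5-depleted minus wild type was 477, 946, 685, 487, 295, 180 and 12 bp in the same order. The opposite direction thus rested on a very small ES change at Hoxd1. The ES change of the span itself reversed with the higher-scoring 50% of each list. In ES, Hoxd13 and Hoxd10 were called higher for this mark, and in NPC 0 members were called.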

How the results depend on the processing

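Of 168 alternative values for 38 results, 141 stayed within 1.5 times the value given, 26 moved further and 1 changed direction. For log2 ratios, the limit of 1.5 times applied to the ratio before the log was taken. The last was the H3K27me3 log2 ratio of PCGF5-depleted against wild type ES, which became -0.14 with the higher-scoring 50% of each list. That setting also moved the H2AK119ub1 log2 ratio of PCGF5-depleted against wild type NPC to -3.17, that of PCGF5-depleted NPC against ES to -1.82, and the H3K27me3 log2 ratios of NPC against ES to 3.20 in wild type and 3.02 in PCGF5-depleted cells. With it, the H2AK119ub1 comparison of genotypes in ES called 0 members lower, that of PCGF5-depleted NPC against ES called 6 lower and 0 higher, and the H3K27me3 comparison of genotypes in ES called 2 lower and 1 higher. H2AK119ub1 peaks were then left at 5 members in PCGF5-depleted NPC, and 17.5% of the H2AK119ub1 base pairs of wild type ES and 10.6% of those of PCGF5-depleted ES lay in H3K27me3. As a share of peaks in place of base pairs, these were 47.2% and 46.8%. With equal numbers of top-scoring peaks, H2AK119ub1 called 0 members lower between the genotypes in ES, 1 higher between them in NPC and 2 higher between the stages in PCGF5-depleted cells. With a window of 1000 bp, H2AK119ub1 called 2 lower and 2 higher between the genotypes in ES, 5 lower and 1 higher between them in NPC, 1 lower between the stages in wild type cells and 3 higher between them in PCGF5-depleted cells. For H3K27me3 that window called 1 lower between the genotypes in ES and 5 higher between the stages in PCGF5-depleted cells, a number that joining peaks within 1000 bp also gave. A q-value of at most 0.05 and the span without flanks moved 0 values beyond 1.5 times. The cause of these shifts was not tested. Peak lists show nothing below the threshold of the caller, the depth is unknown, and no library was repeated, so none of the differences carries an error. No paired analysis was possible because each group had 1 library and the results come from no test.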
